A study of Rattus norvegicus with 15 samples.

Results

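Retinas of rats that received intravitreal DPSC cells and sodium iodate (NaIO3) were compared with retinas of healthy rats. The comparison rests on 6 of the 15 libraries, the 3 labelled DPSC and the 3 labelled NT (no treatment, healthy), and covers every gene with a mean value of at least 3.32, the log2 of 10, over those 6 libraries. Of 20375 genes listed, 15397 met this minimum. All rats were wild-type Sprague-Dawley animals, and the labels of all groups, healthy rats included, give day 31 after transplantation. The labels put their age at postnatal week 12, whereas the design text of the series gives day 31 as the age. The DPSC group received systemic NaIO3 at 40 mg/kg together with DPSC cells suspended in balanced salt solution. The labels do not give the order of the treatments, and the study's methods place the injection of its other cells before NaIO3. The labels list DPSC among the transplanted stem cells, and what the abbreviation stands for and the species of the cells are not given in the sources used here. Rats with xenografts also received dexamethasone and then cyclosporin. The NT group is labelled healthy, so NaIO3, injection, cells and any immunosuppression cannot be told apart in this contrast. The sham group, 3 libraries from rats given NaIO3 with vehicle, is set beside it where it shows which differences from NT were present without cells. The study speaks of biological replicates, without describing the DPSC group. The labels do not tie the 3 libraries of a group to separate animals, so p-values measure the spread between these libraries.

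NaIO3 is an oxidant that kills the retinal pigment epithelium (RPE), the pigmented layer that regenerates visual pigment and clears shed outer segment discs. Photoreceptors that lose this layer degenerate. Rods and cones turn light into a change of membrane potential through opsin, transducin, phosphodiesterase and the cyclic nucleotide-gated channel. Müller glia span the retina and react to photoreceptor injury by raising intermediate filament and cytokine response genes, while microglia and invading macrophages take up debris and produce complement.

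All values are regularized log (rlog) values on a log2 scale, so a difference of 1 stands for a factor of 2. The transformation draws each library toward the gene's mean, which makes the differences of weakly expressed genes too small. The median value of the tested genes lay between 8.68 and 8.75 in all 6 libraries. A differentially expressed gene (DEG) had a Benjamini-Hochberg adjusted p below 0.05 in limma and a difference of the group means above 1 in either direction.

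The 3 DPSC libraries were not alike. Over all listed genes the NT libraries lay 31.7 ± 3.69 rlog units apart (SD over 3 pairs), and the DPSC libraries 60.9 ± 14.2 apart, about as far as they lay from NT (62.4 ± 12.7 over 9 pairs). The library labelled DPSC replicate 2 was nearest to a library of the MSCEPO group (mesenchymal stem cells engineered to express erythropoietin) at 27.5, which is as close as NT replicates 1 and 2 lay to each other at 27.9. DPSC replicates 1 and 3 were each nearest to a sham library, at 41.8 and 36.4. In a principal component analysis of the 500 most variable genes, PC1 held 51.0% of the variance and set DPSC replicate 2 (score 40.9) apart from the other 5 libraries, which scored between -16.1 and -0.87. PC2 held 34.8% and set DPSC replicates 1 and 3 (26.2 and 16.0) apart from the rest. In turn, the library labelled MSCEPO replicate 3 was nearest to DPSC replicate 3, at 58.6, while MSCEPO replicates 1 and 2 were nearest to DPSC replicate 2, at 27.5 and 35.0. Whether the libraries labelled DPSC replicate 2 and MSCEPO replicate 3 were exchanged was not tested. The labels were kept, so every DPSC mean includes the library labelled DPSC replicate 2. Many results against NT are given with and without it, and values against sham include it unless stated.

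**Figure D1:**
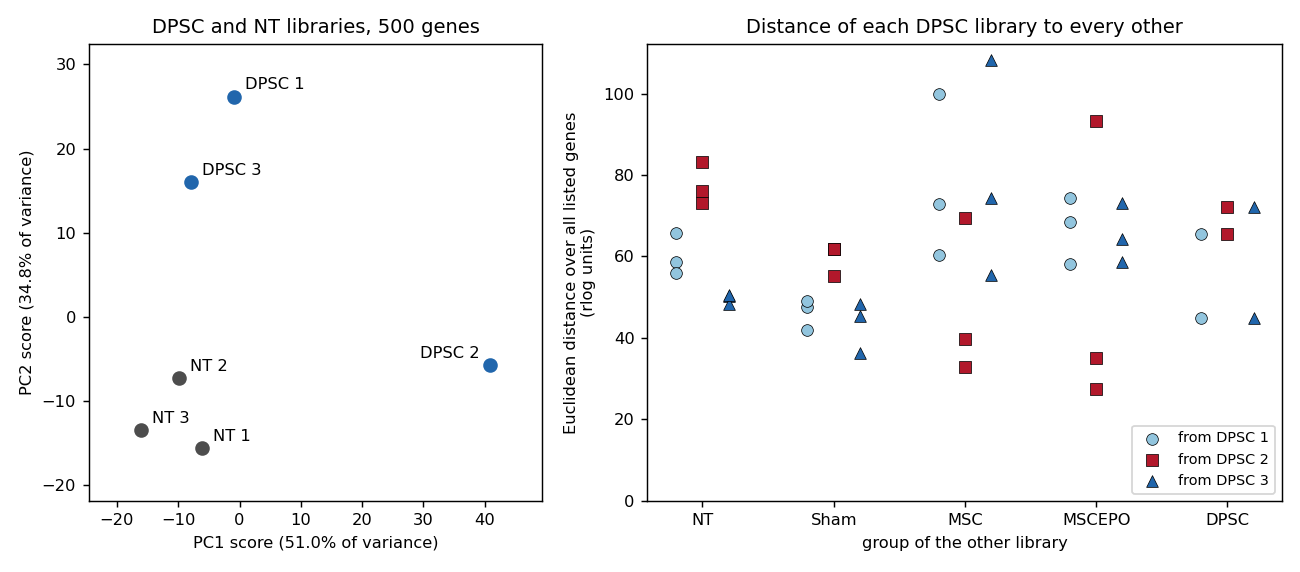
The left panel plots the PC1 and PC2 scores of the 3 DPSC and 3 NT libraries over the 500 most variable genes. The right panel gives the Euclidean distance in rlog units over 20375 genes from each DPSC library (1 marker shape each) to every other library, by that library's group. DPSC replicate 2 lies nearest to an MSCEPO library (27.5), and DPSC replicates 1 and 3 lie nearest to sham libraries (41.8 and 36.4).

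The same split ran through the markers of other tissues and cells. Lens crystallins and fibre genes, which mark the lens although retinal glia express some crystallins too, stood at 5.55, -0.99 and 4.69 relative to the NT mean in DPSC replicates 1, 2 and 3, as the mean of 17 genes. The NT libraries stood at -1.34, 0.83 and 0.51, so lens transcripts were present in NT as well. The B cell marker Cd79a, a component of the antigen receptor, was at 4.35, 3.98 and 4.17 in NT and at 4.14, 7.07 and 4.17 in DPSC. DPSC replicate 2 therefore held the B cell signal and low lens values, and DPSC replicates 1 and 3 held the lens signal and no raised Cd79a. Of the MSCEPO libraries, replicates 1, 2 and 3 stood at -0.71, 0.17 and 3.62 for the lens list. For a list of 10 B and plasma cell genes they stood at 1.70, 1.23 and 0.14. MSCEPO replicate 3 thus had the higher lens and lower B cell values, as DPSC replicates 1 and 3 did. Rod phototransduction genes did not follow this. Their mean was -1.38, -1.52 and -1.52 in MSCEPO replicates 1, 2 and 3 and -0.88, -1.32 and -0.76 in DPSC. For rods MSCEPO replicate 3 therefore lay with the other MSCEPO libraries. The haemoglobin gene Hbb was highest in DPSC replicate 1, at 9.58, against 5.90 to 7.28 in NT. Rod markers defined the tissue in all 6 libraries, with the rod transducin subunit Gnat1 between 15.21 and 18.04.

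Against NT, 82 DEGs were higher (0.533% of the genes tested) and 33 lower (0.214%) in the DPSC group. By adjusted p alone 190 genes were higher (1.23%) and 208 lower (1.35%), so calls were shared almost evenly and the larger differences were mostly rises. In all 115 DEGs the 3 DPSC libraries lay outside the range of the 3 NT libraries, which was so for 16% (above) and 15.7% (below) of the tested genes. Every count given below for a group of genes is to be read against these shares. The calls depended on single libraries. With NT replicate 1 or NT replicate 3 left out limma called 0 DEGs, although 1311 and 1364 genes were then higher and 1252 and 1474 lower at an unadjusted p below 0.05. By adjusted p alone it then also called 0 genes, so every count of calls over the 6 libraries given for a group of genes becomes 0 without either of these libraries. Without NT replicate 2 it called 6 higher and 2 lower, and without DPSC replicate 1 it called 47 and 12. Leaving out DPSC replicate 2 gave 153 higher (0.994%) and 28 lower (0.182%), 85 of which were among the 115, and without DPSC replicate 3 there were 320 and 75. With the spread estimated over all 15 libraries the counts were 82 (0.533%) and 40 (0.26%), and between 31 and 112 higher and between 10 and 62 lower as each of these libraries was left out. With all 15 libraries in the fit, 28 of the 89 called genes named here missed the adjusted p, among them Rorb (0.181), Xiap (0.206) and Rgs9 (0.31). Calls among microglia and macrophage genes went from 5 to 2 and among interferon-stimulated genes from 6 to 2. No call named here passed under all of these settings.

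**Figure D2:**
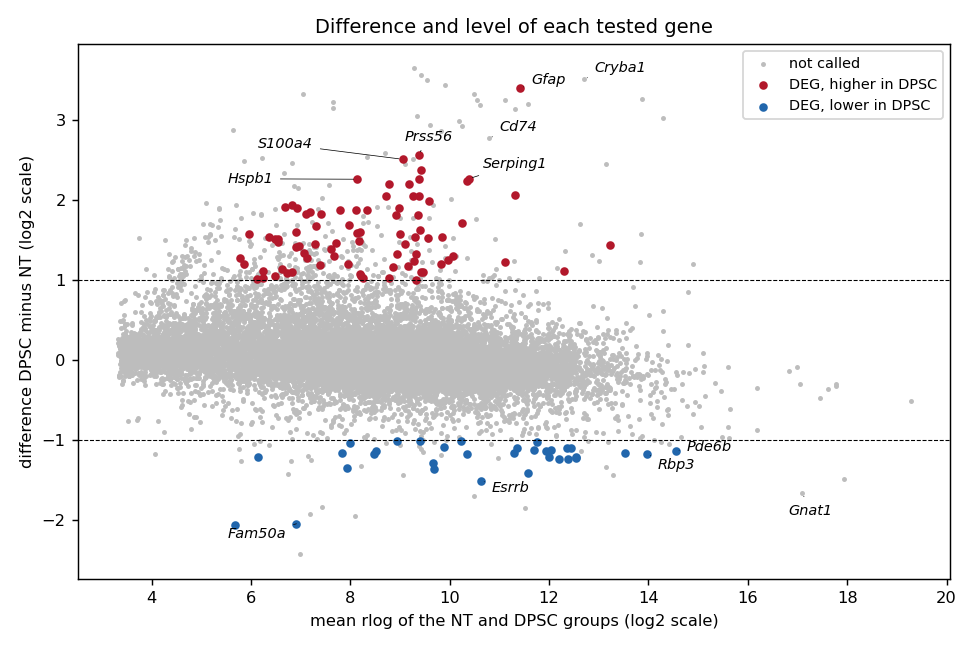
Each point is 1 of 15397 tested genes, with the mean rlog value of the NT and DPSC groups on the horizontal axis and the difference DPSC minus NT on the vertical axis, both on the log2 scale. Red and blue points are the 82 higher and 33 lower DEGs, dashed lines mark a difference of 1, and Gnat1, Cd74 and the crystallin Cryba1 lie beyond the lines without passing the adjusted p.

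Gfap, the intermediate filament of reactive Müller glia and astrocytes, had the largest rise of any DEG. Its values were 9.64, 10.08 and 9.43 in NT and 12.71, 13.58 and 13.06 in DPSC, ranges that do not overlap. It rose by 3.40 ± 0.25 (SE, adjusted p = 0.0105). The next largest rises among DEGs were those of Prss56 (2.56, adjusted p = 0.0225), a serine protease made by Müller glia, S100a4 (2.51, adjusted p = 0.0402), a calcium-binding protein, and Il4r (2.38, adjusted p = 0.0149), the receptor chain for interleukin 4. Serping1, C1s, C3 and Hspb1 followed and are described with their groups. Lad1, an anchoring filament protein of epithelia, stood at 7.68, 7.99 and 7.40 in NT and at 9.73, 10.04 and 9.87 in DPSC, and rose by 2.19 ± 0.16 (SE, adjusted p = 0.0105).

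Among the genes with the largest falls, Esrrb encodes an orphan nuclear receptor of rods and Slc4a7 a bicarbonate transporter found in photoreceptors. Esrrb had 11.35, 11.37 and 11.41 in NT and 10.22, 9.16 and 10.23 in DPSC, and fell by 1.51 ± 0.28 (SE, adjusted p = 0.0478). Slc4a7 had 12.10, 12.29 and 12.46 in NT and 11.10, 10.65 and 10.86 in DPSC, and fell by 1.41 ± 0.14 (SE, adjusted p = 0.0149). In both genes DPSC replicate 2 was lowest, and every DPSC value lay below every NT value. Further falls were those of Cdr2 (-1.36, adjusted p = 0.0354), Hhatl (-1.34, adjusted p = 0.0472), Cds1 (-1.23, adjusted p = 0.0327), an enzyme of phospholipid synthesis, and Dusp4 (-1.28, adjusted p = 0.0478), a phosphatase of MAP kinases. Fam50a had the largest difference of the named falls, -2.04, with an adjusted p of 0.0438. Its sham values spread over 6.90, 7.91 and 5.07, and its adjusted p in the fit of all 15 libraries was 0.22.

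Rod phototransduction genes were lower in DPSC as a group. All 21 tested members lay below the 3 NT libraries, 12 passed the adjusted p, 4 of them as DEGs, and the median difference was -0.96, against 0.00313 over all tested genes. Over all tested genes 15.7% lay below the NT libraries, 1.35% were lower by adjusted p and 0.214% were lower DEGs. Gnat1, the rod transducin alpha subunit, was at 17.91, 18.04 and 17.83 in NT and 16.76, 15.21 and 16.83 in DPSC, and the groups did not overlap. It differed by -1.66 ± 0.45 (SE, adjusted p = 0.0915) over all 6 libraries and by -1.13 (adjusted p = 0.049) without DPSC replicate 2, which was its lowest library. Whether fewer rods or less RNA per rod underlies a lower value cannot be told apart in whole tissue.

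Pde6b and Pde6a, the catalytic subunits of the rod phosphodiesterase that hydrolyses cyclic GMP, both passed. Pde6b was at 15.07, 15.12 and 15.15 in NT and at 14.13, 13.50 and 14.30 in DPSC and fell by 1.13 ± 0.21 (SE, adjusted p = 0.0477), and Pde6a fell by 0.83 ± 0.13 (SE, adjusted p = 0.0377). Other members that fell act in the recovery from light: Gucy2e, a guanylate cyclase that restores cyclic GMP, fell by 0.75 ± 0.10 (SE, adjusted p = 0.0271), and Rgs9, which speeds the shutoff of transducin, fell by 0.87 ± 0.12 (SE, adjusted p = 0.0281). Arrestin (Sag), which ends the response to light, was at 16.57, 16.58 and 16.70 in NT and 15.85, 15.33 and 16.04 in DPSC and differed by -0.87 ± 0.21 (SE, adjusted p = 0.0773). In the 5 libraries left without DPSC replicate 2 adjusted p alone called 2.6% of tested genes higher and 2.2% lower. There the median difference of the 21 genes was -0.76 and 14 passed.

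**Figure D3:**
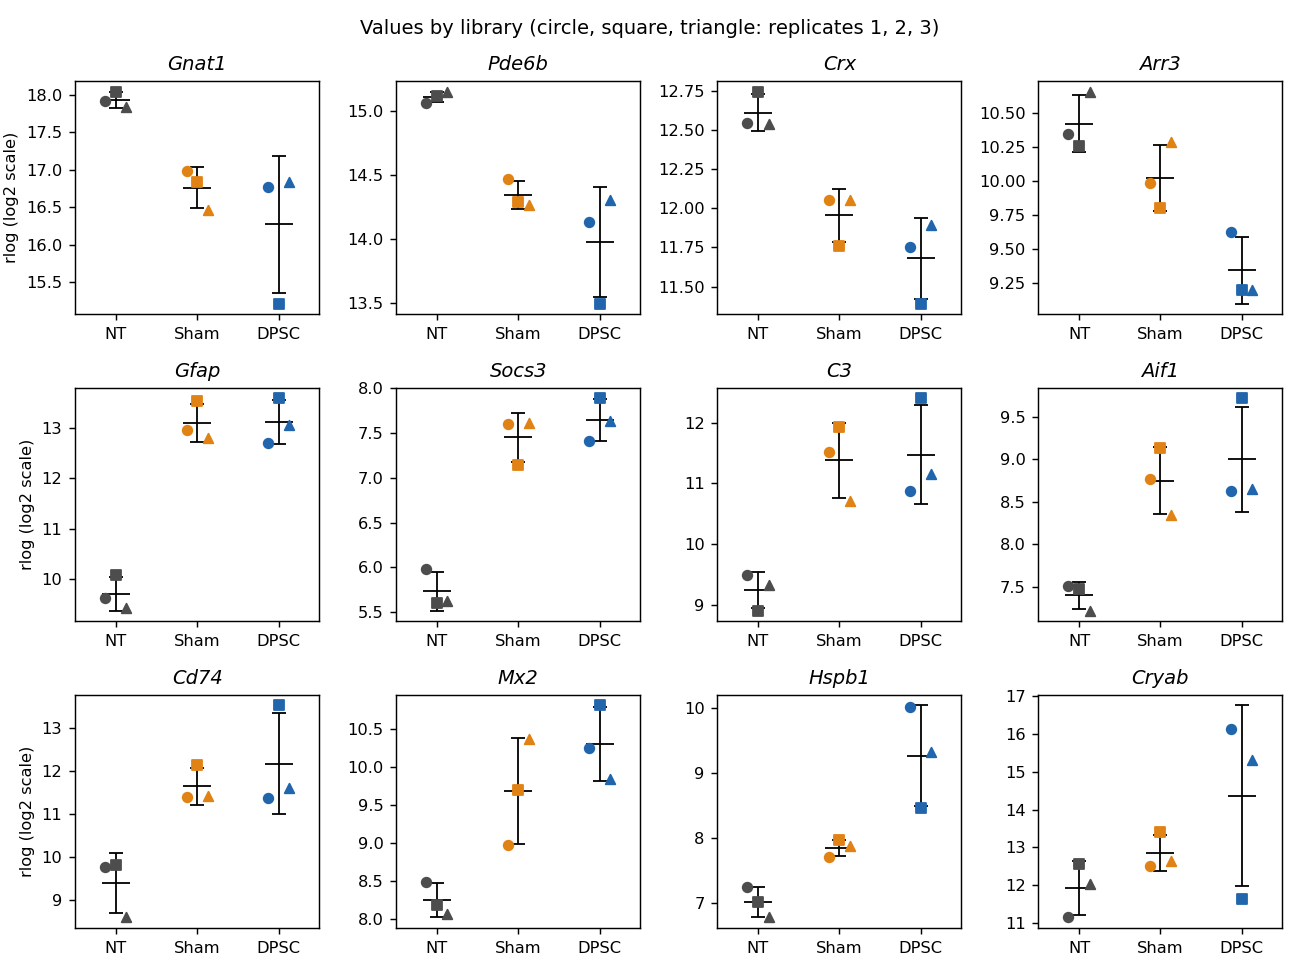
Rlog values (log2 scale) of 12 genes in each NT, sham and DPSC library, with the group mean and SD as a bar, marker shapes for replicates 1 to 3, and an axis range of its own in each panel. The means of the rod and cone genes are lower and those of Gfap, Socs3, C3, Aif1, Cd74 and Mx2 higher in both NaIO3 groups than in NT, while Hspb1 and Cryab are highest in DPSC replicates 1 and 3.

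Cone genes were mixed. Of 13 tested, 3 fell, 1 rose, and the median difference was -0.37. Arr3, the cone arrestin, went from 10.35, 10.26 and 10.66 in NT to 9.62, 9.20 and 9.20 in DPSC and fell by 1.08 ± 0.16 (SE, adjusted p = 0.0301). Opn1mw, the middle-wavelength opsin, was at 8.90, 9.27 and 9.08 in NT and 8.05, 7.55 and 8.24 in DPSC and fell by 1.14 ± 0.19 (SE, adjusted p = 0.042). Grk1, the opsin kinase shared with rods, fell by 1.10 ± 0.15 (SE, adjusted p = 0.0282). Gnb3, the beta subunit of transducin in cones and of the G protein in ON bipolar cells, moved the other way, from 11.81, 11.60 and 11.81 to 12.41, 12.93 and 13.22, and rose by 1.11 ± 0.20 (SE, adjusted p = 0.0456). Its adjusted p was 0.0521 without DPSC replicate 2.

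Outer segment and photoreceptor identity genes followed the rods. Of 26 tested, 10 fell and 0 rose, 23 lay below all NT libraries, and the median difference was -0.70. Over all tested genes 1.35% fell by adjusted p and 15.7% lay below all NT libraries. Rorb, a nuclear receptor needed for rod fate, had DPSC values close together. It was at 11.39, 11.40 and 11.41 in NT and 10.71, 10.74 and 10.70 in DPSC and fell by 0.68 ± 0.06 (SE, adjusted p = 0.0105). The homeodomain factor Crx, which drives photoreceptor genes, was at 12.54, 12.74 and 12.54 and 11.75, 11.39 and 11.90 and fell by 0.93 ± 0.14 (SE, adjusted p = 0.0335), and the rod marker Nrl, a leucine zipper factor, fell by 1.10 ± 0.20 (SE, adjusted p = 0.0453). Abca4, the outer segment transporter of retinoids, fell by 0.72 ± 0.09 (SE, adjusted p = 0.0217) and Impg1, of the matrix between photoreceptors, fell by 0.84 ± 0.08 (SE, adjusted p = 0.0149). Leaving out DPSC replicate 2, 14 members of this list passed.

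The promoters of the photoreceptor genes that moved together are shown for Crx, Abca4 and Rbp3, as the 250 bases before the gene start in RefSeq (build GRCr8), because each holds the core letters TAATCC, the motif that Crx and Otx2 homeodomains bind. Capitals mark a match, which reads GGATTA where the motif is on the other strand.
Crx promoter, chr1:85681853-85682102, minus strand: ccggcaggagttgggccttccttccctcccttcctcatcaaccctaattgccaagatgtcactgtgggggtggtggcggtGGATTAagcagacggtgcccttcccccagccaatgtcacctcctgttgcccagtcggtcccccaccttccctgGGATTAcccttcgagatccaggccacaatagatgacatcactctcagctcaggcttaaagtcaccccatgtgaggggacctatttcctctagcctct
Abca4 promoter, chr2:212849235-212849484, plus strand: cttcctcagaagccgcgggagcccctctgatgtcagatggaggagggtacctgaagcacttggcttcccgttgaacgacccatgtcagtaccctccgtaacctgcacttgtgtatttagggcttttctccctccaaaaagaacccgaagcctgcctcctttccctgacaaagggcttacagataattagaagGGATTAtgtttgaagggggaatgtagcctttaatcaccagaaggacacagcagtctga
Rbp3 promoter, chr16:9273537-9273786, plus strand: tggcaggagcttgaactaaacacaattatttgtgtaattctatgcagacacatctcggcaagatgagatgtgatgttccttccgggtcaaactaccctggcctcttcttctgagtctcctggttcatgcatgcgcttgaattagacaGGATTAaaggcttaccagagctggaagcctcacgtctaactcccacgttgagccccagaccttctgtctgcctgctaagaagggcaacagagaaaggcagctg
TAATCC occurred on either strand of this window in 6.34% of 33469 rat promoters. It occurred in 5 of 16 rod phototransduction genes with a promoter in the table, in 1 of 7 cone genes and in 4 of 22 outer segment and identity genes. A match is a description of letters and not a measured binding site.

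RPE and visual cycle genes showed 1 call among 19, that of Rbp3, the retinoid carrier that photoreceptors secrete into the space facing the RPE. Rbp3, whose promoter is printed above, was at 14.48, 14.53 and 14.66 in NT and 13.53, 13.05 and 13.56 in DPSC and fell by 1.18 ± 0.15 (SE, adjusted p = 0.0249). Genes made by the RPE itself did not pass, although some had large differences, and the list went both ways. Of the 19 differences 11 were negative and 8 positive. All NT libraries lay above 9 of the genes and below 2, where 15.7% and 16% of all tested genes did so. The RPE marker Best1 was at 6.88, 6.85 and 6.55 in NT and higher, at 7.08, 7.06 and 7.21, in DPSC. Tyr, another RPE marker, was at 9.77, 9.72 and 7.36 in NT and 10.80, 10.10 and 7.17 in DPSC. Rgr, a retinal G protein-coupled receptor of RPE and Müller glia, was at 12.30, 12.74 and 12.30 in NT and 11.07, 9.66 and 11.06 in DPSC and differed by -1.85 ± 0.38 (SE, adjusted p = 0.0579). It passed without DPSC replicate 2 (-1.38; adjusted p = 0.00952). Rpe65, the isomerase of the visual cycle, was at 11.58, 12.36 and 11.82 and 11.38, 10.77 and 10.92 and differed by -0.90 ± 0.23 (SE, adjusted p = 0.0855).

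Neurons of the inner retina gave few calls. Of 19 bipolar cell genes only Lrit3, a protein of the synapse between photoreceptors and ON bipolar cells, passed. It was at 9.16, 9.56 and 9.49 in NT and 8.53, 8.58 and 8.59 in DPSC and fell by 0.84 ± 0.12 (SE, adjusted p = 0.0282). Prkca, the kinase that marks rod bipolar cells, differed by -0.55 ± 0.11 (SE, adjusted p = 0.0511), and passed without DPSC replicate 2 (-0.63; adjusted p = 0.0267). None of 21 amacrine and horizontal cell genes and none of 20 ganglion cell genes passed in limma, and their median differences were -0.18 and -0.15. At an unadjusted p below 0.05 they held 4 and 1 lower genes and 0 higher, where all 15397 tested genes held 1880 higher (12.2%) and 1814 lower (11.8%). The number of cells of each type was not measured.

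Homeostatic Müller glia genes were mixed, with a median difference of 0.09 over 19 genes and a range from -0.46 to 1.24. Of these, 7 lay above all NT libraries and 3 below, where 16% and 15.7% of all tested genes did. At an unadjusted p below 0.05 in limma 7 were higher and 1 lower, against 12.2% and 11.8% of all tested genes. Spon1, an extracellular adhesion protein, rose by 0.51 ± 0.09 (SE, adjusted p = 0.0453) and was the 1 call. Its adjusted p was 0.0507 without DPSC replicate 2. Crym, which binds thyroid hormone, differed by 1.24 ± 0.24 (SE, adjusted p = 0.0512), and Sox2, a progenitor factor kept in Müller glia, differed by 0.44 ± 0.09 (SE, adjusted p = 0.055).

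Reactive gliosis gave the most calls of any list. Of 24 tested genes 15 rose, 12 as DEGs, 0 fell, and 21 lay above all NT libraries, with a median difference of 1.64. Over all tested genes 1.23% rose by adjusted p, 0.533% as DEGs, and 16% lay above all NT libraries. Beside Gfap, the intermediate filament Vim went from 12.65, 12.70 and 12.15 in NT to 14.34, 13.90 and 13.58 in DPSC and rose by 1.44 ± 0.23 (SE, adjusted p = 0.0367). DPSC replicate 1 was highest for Vim, which lens fibres also express, and its part from lens was not tested. Socs3, the feedback inhibitor of STAT3 signalling, was at 5.98, 5.60 and 5.62 in NT and 7.41, 7.88 and 7.63 in DPSC and rose by 1.91 ± 0.17 (SE, adjusted p = 0.0123). The transcription factor Bcl3 had similarly tight groups. It was at 6.09, 5.85 and 5.96 and 7.72, 7.97 and 7.92 and rose by 1.90 ± 0.12 (SE, adjusted p = 0.0102). Cebpd, another transcription factor, was at 7.56, 7.35 and 7.29 in NT and spread more in DPSC, at 8.88, 9.38 and 9.54. It rose by 1.87 ± 0.18 (SE, adjusted p = 0.0149).

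Secreted factors of this list rose too. Edn2, the endothelin that injured photoreceptors release, went from 5.32, 5.32 and 5.15 in NT to 6.08, 6.68 and 6.62 in DPSC and rose by 1.20 ± 0.18 (SE, adjusted p = 0.0328). Fgf2, a survival factor for photoreceptors, went from 5.96, 6.34 and 5.98 to 7.26, 8.30 and 7.52 and rose by 1.60 ± 0.27 (SE, adjusted p = 0.042). The cytokine Lif rose by 0.75 ± 0.09 (SE, adjusted p = 0.0217). Lcn2, an iron-carrier protein of reactive glia, rose by 1.71 ± 0.19 (SE, adjusted p = 0.0187), and Timp1, an inhibitor of metalloproteases, rose by 1.87 ± 0.21 (SE, adjusted p = 0.0196). Without DPSC replicate 2, 21 of the 24 passed and the median difference was 1.29.

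Receptors and signal carriers of the JAK-STAT path rose with these genes, some of which the list shares with gliosis. Of 29 tested, 5 rose and 0 fell. Jak3, a kinase of cytokine receptors, was at 6.98, 7.14 and 7.26 in NT and 8.63, 8.91 and 8.90 in DPSC and rose by 1.69 ± 0.12 (SE, adjusted p = 0.0105). Stat3 was at 10.95, 10.88 and 10.83 and 11.59, 11.95 and 11.74 and rose by 0.87 ± 0.10 (SE, adjusted p = 0.0202). Osmr, the receptor for oncostatin M, was at 6.19, 6.67 and 5.95 and 7.76, 8.73 and 7.85 and rose by 1.84 ± 0.30 (SE, adjusted p = 0.0383). In Jak3 and Stat3 the DPSC libraries differed from each other by less than the gap to NT.

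Microglia and macrophage genes were higher in all DPSC libraries and highest in DPSC replicate 2. The mean of 29 genes stood at 0.85, 1.83 and 0.70 relative to the NT mean, against 0.10, 0.15 and -0.25 in the NT libraries. Of the 29, 5 rose as DEGs and 0 fell, 21 lay above all NT libraries, and the median difference was 1.09. Over all tested genes 0.533% rose as DEGs and 16% lay above all NT libraries. Aif1, the calcium-binding protein IBA1 used to stain microglia, was at 7.51, 7.47 and 7.22 in NT and 8.63, 9.72 and 8.65 in DPSC and rose by 1.60 ± 0.30 (SE, adjusted p = 0.0477). Lgals3, a galectin of phagocytes, was at 8.46, 8.24 and 7.51 and 10.31, 10.63 and 9.86 and rose by 2.20 ± 0.29 (SE, adjusted p = 0.0249). The signalling adaptors of Fc receptors and TREM2 also rose, with Fcer1g (1.87, adjusted p = 0.0295) and Tyrobp (1.41, adjusted p = 0.0398), as did the inhibitory Fc receptor Fcgr2b (1.43, adjusted p = 0.0438). The lysosomal marker Cd68 was at 5.97, 6.06 and 5.63 and 6.78, 8.36 and 6.89 and differed by 1.46 ± 0.42 (SE, adjusted p = 0.101). Without DPSC replicate 2 its difference was 0.95 (adjusted p = 0.0267), and 10 members passed.

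Complement genes were higher in part. Of 20 components and regulators tested, 7 rose as DEGs and 0 fell, 16 lay above all NT libraries, and the median difference was 1.23. Over all tested genes 0.533% rose as DEGs and 16% lay above all NT libraries. C1qb and C1qa, chains of the recognition molecule, were among the complement DEGs. C1qb was at 8.22, 7.97 and 7.84 in NT and 9.33, 10.53 and 9.62 in DPSC and rose by 1.82 ± 0.30 (SE, adjusted p = 0.0384), and C1qa rose by 1.81 ± 0.33 (SE, adjusted p = 0.0456). The protease C1s was at 8.33, 8.58 and 7.83 and 10.13, 11.43 and 9.96 and rose by 2.26 ± 0.40 (SE, adjusted p = 0.0453). C4a rose by 1.68 ± 0.23 (SE, adjusted p = 0.0283), and C3, the central component, was at 9.48, 8.90 and 9.33 and 10.87, 12.40 and 11.14 and rose by 2.23 ± 0.39 (SE, adjusted p = 0.0441). Serping1, which inhibits C1s, was at 9.60, 9.33 and 8.83 and 10.97, 12.45 and 11.13 and rose by 2.26 ± 0.41 (SE, adjusted p = 0.0456). In C1s, C3 and Serping1 DPSC replicate 2 was more than 1 unit above the other DPSC libraries, which themselves lay above NT. Leaving it out gave differences of 1.80, 1.77 and 1.80 with adjusted p-values of 0.0139, 0.00952 and 0.0139, and 10 members passed.

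MHC class II genes, whose products present antigen to helper T cells, had large differences that did not pass. Cd74, the invariant chain, was at 9.76, 9.83 and 8.60 in NT and 11.38, 13.52 and 11.60 in DPSC and differed by 2.77 ± 0.61 (SE, adjusted p = 0.0651). RT1-Ba was at 7.64, 7.89 and 6.71 and 9.23, 11.41 and 9.34 and differed by 2.58 ± 0.62 (SE, adjusted p = 0.075). For both, every DPSC library lay above NT, NT replicate 3 was lowest and DPSC replicate 2 highest. Without DPSC replicate 2 both passed, Cd74 with a difference of 2.09 (adjusted p = 0.0329) and RT1-Ba with 1.87 (adjusted p = 0.0344), and 6 of 11 members of the list rose. The 1 call over all 6 libraries was a fall. Ciita, the activator of class II transcription, was at 7.88, 8.04 and 7.74 in NT and 6.85, 7.15 and 6.95 in DPSC and fell by 0.91 ± 0.13 (SE, adjusted p = 0.0291). Class I genes are highly similar in sequence, so reads may be split among them. Of 22, 1 rose, RT1-CE5 (1.10; adjusted p = 0.0377). The class I light chain B2m was at 12.44, 12.46 and 11.73 in NT and 13.38, 14.12 and 13.06 in DPSC and differed by 1.31 ± 0.31 (SE, adjusted p = 0.0742), and the class I activator Nlrc5 differed by 1.18 ± 0.24 (SE, adjusted p = 0.0548).

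Interferon-stimulated genes rose in part. Of 34 tested, 6 rose, 4 as DEGs, 0 fell, and 29 lay above all NT libraries, with a median difference of 0.91. Over all tested genes 1.23% rose by adjusted p, 0.533% as DEGs, and 16% lay above all NT libraries. Mx2 and Mx1, antiviral GTPases, had the largest rises. Mx2 was at 8.49, 8.18 and 8.06 in NT and 10.24, 10.81 and 9.84 in DPSC and rose by 2.05 ± 0.25 (SE, adjusted p = 0.0204), and Mx1 rose by 1.83 ± 0.29 (SE, adjusted p = 0.0377). Irf9, the DNA-binding part of the interferon response complex, was at 8.06, 7.99 and 8.15 and 8.92, 9.08 and 8.94, with the DPSC values close together, and rose by 0.91 ± 0.09 (SE, adjusted p = 0.0149). Usp18, an inhibitor of the receptor, rose by 1.10 ± 0.15 (SE, adjusted p = 0.0282). Cxcl10, a chemokine that attracts T cells, was at 5.29, 5.22 and 4.95 and 6.11, 6.71 and 6.45 and rose by 1.27 ± 0.18 (SE, adjusted p = 0.0282). Irf7, a transcription factor of the pathway, did not pass, with a difference of 1.02 (adjusted p = 0.0579). With DPSC replicate 2 left out, 11 of the 34 passed.

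The Cxcl10 promoter is shown because it is a called gene with the core of the interferon-stimulated response element, here 2 copies of GAAA with any 2 bases between them, in the 250 bases before its start (RefSeq, build GRCr8). Capitals mark the match, and the other strand was searched too.
Cxcl10 promoter, chr14:15988816-15989065, plus strand: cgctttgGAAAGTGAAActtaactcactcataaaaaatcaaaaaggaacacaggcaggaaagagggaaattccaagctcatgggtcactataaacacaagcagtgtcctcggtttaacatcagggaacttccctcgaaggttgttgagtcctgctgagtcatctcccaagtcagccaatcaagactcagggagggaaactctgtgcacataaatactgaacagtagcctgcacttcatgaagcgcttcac
These letters occurred on either strand of the window in 3.41% of 33469 rat promoters and in 17 of the 25 interferon-stimulated genes that have a promoter in the table.

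Lymphocyte genes separated the libraries more than the groups. Over 21 T and NK cell genes the DPSC libraries stood at 0.15, 0.67 and 0.05 and the NT libraries at 0.07, -0.03 and -0.04 relative to the NT mean. Over 10 B and plasma cell genes DPSC stood at -0.01, 1.49 and 0.24 and NT at 0.05, -0.02 and -0.03. DPSC replicate 2 was highest in both. Cd3e, a chain of the T cell receptor complex, was at 4.44, 4.06 and 4.11 in NT and 4.41, 5.53 and 4.44 in DPSC and differed by 0.59 ± 0.31 (SE, adjusted p = 0.288). No gene of either list rose in limma over all 6 libraries. At an unadjusted p below 0.05, 5 and 1 were higher, where 12.2% of all tested genes were. The median difference of the B cell genes was 0.67 with DPSC replicate 2 and 0.09 without it.

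**Figure D4:**
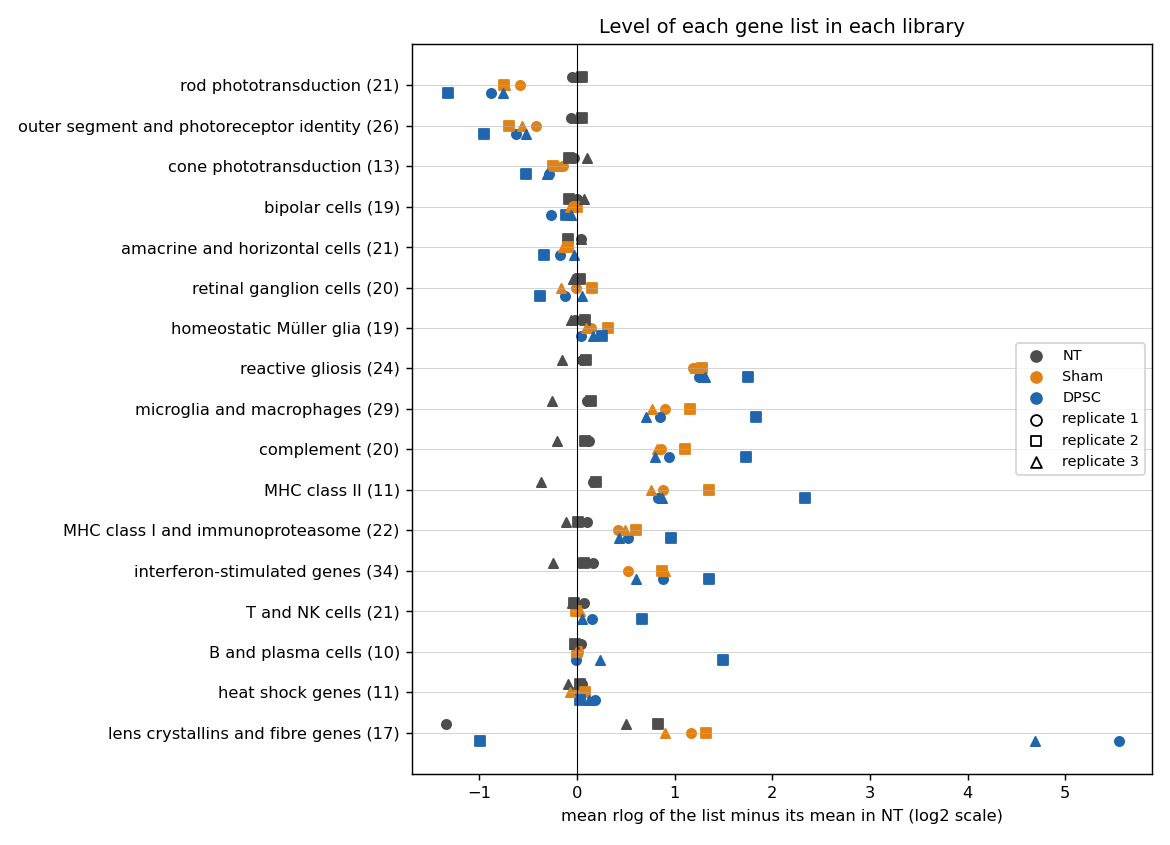
Each marker is 1 library, placed at the mean rlog value of a gene list minus the mean of that list in NT (log2 scale), for 17 lists with the number of tested genes in brackets. Gliosis, microglia, complement, MHC and interferon lists sit above NT in sham and DPSC libraries, B and plasma cell genes are raised in DPSC replicate 2 (1.49), and lens genes in DPSC replicates 1 and 3 (5.55 and 4.69).

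NF-kappaB and TNF genes gave calls in both directions. Of 27 tested, 3 rose and 1 fell. Tnfrsf1a, the main TNF receptor, was at 7.83, 7.82 and 7.39 in NT and 8.74, 9.04 and 8.40 in DPSC and rose by 1.04 ± 0.20 (SE, adjusted p = 0.049), and Relb, a subunit of NF-kappaB, rose by 0.72 ± 0.11 (SE, adjusted p = 0.0327). The third was Bcl3, given above. Tnfaip3, the enzyme A20 that ends NF-kappaB signalling, was at 10.88, 11.02 and 10.89 in NT and 9.76, 9.55 and 9.97 in DPSC and fell by 1.17 ± 0.11 (SE, adjusted p = 0.0149). Among 26 cell death genes, Xiap, an inhibitor of caspases, went from 11.97, 12.09 and 12.09 in NT to 11.24, 11.07 and 11.12 in DPSC and fell by 0.91 ± 0.08 (SE, adjusted p = 0.0105). Cell cycle genes had 1 call each way among 29. Ccnd2, a cyclin of the G1 phase, was at 8.60, 8.55 and 8.58 and 9.40, 10.17 and 9.69 and rose by 1.18 ± 0.19 (SE, adjusted p = 0.0363), and Tyms, of thymidylate synthesis, fell by 0.50 ± 0.09 (SE, adjusted p = 0.0438). Ccnd1 differed by 1.53 ± 0.36 (SE, adjusted p = 0.073).

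Stress genes divided by library. Hspb1, a small heat shock protein, was at 7.24, 7.01 and 6.78 in NT and 10.01, 8.46 and 9.33 in DPSC and rose by 2.26 ± 0.37 (SE, adjusted p = 0.038). It was the 1 call among 11 heat shock genes, whose median difference was -0.13. Its values in DPSC replicates 1, 2 and 3 had the same order as the lens list, and the part of lens RNA in it was not tested. DPSC replicate 2, with lens genes below the NT mean, still lay above all NT libraries for Hspb1. S100a4 had the same order, with 7.52, 8.21 and 7.65 in NT and 11.05, 9.37 and 10.49 in DPSC. None of 17 lens genes passed over all 6 libraries, although their median difference was 3.15 and 17 of 17 were positive. At an unadjusted p below 0.05, 2 of these 17 were higher, where 12.2% of all tested genes were. Cryab, the crystallin that is also a stress protein of glia, was at 11.15, 12.56 and 12.04 in NT and 16.14, 11.64 and 15.32 in DPSC and differed by 2.45 ± 1.12 (SE, adjusted p = 0.238). Cryba1 was at 9.04, 12.18 and 11.60 and 17.10, 10.10 and 16.16 and differed by 3.51 ± 1.85 (SE, adjusted p = 0.289). DPSC replicate 2 lay inside the NT range for both. Without it 17 of 17 passed, with a median difference of 5.31. The split of lens from heat shock genes was made after their values were seen.

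Antioxidant and iron genes gave 3 rises and 1 fall among 27. Hmox1, the haem oxygenase, was at 6.59, 6.70 and 6.42 in NT and 8.15, 8.14 and 7.74 in DPSC and rose by 1.44 ± 0.15 (SE, adjusted p = 0.0149). Mt2A, a metallothionein, was at 8.51, 8.58 and 8.01 and 9.98, 9.65 and 9.83 and rose by 1.45 ± 0.17 (SE, adjusted p = 0.0202). Lcn2 was the other rise. Tfrc, the transferrin receptor that imports iron, was at 11.78, 11.90 and 12.01 and 11.00, 10.46 and 10.96 and fell by 1.09 ± 0.15 (SE, adjusted p = 0.0282). Among 26 genes of glycolysis and lactate 2 fell and 0 rose. Pfkfb2, a regulator of glycolytic flux, was at 11.62, 11.71 and 11.82 in NT and 10.89, 10.52 and 10.78 in DPSC and fell by 0.99 ± 0.11 (SE, adjusted p = 0.0187), and Slc16a1, a lactate transporter, fell by 0.84 ± 0.14 (SE, adjusted p = 0.0408). Hk2, the hexokinase of photoreceptors, differed by -1.43 ± 0.28 (SE, adjusted p = 0.0538).

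Of 32 neurotrophic factors and receptors 4 rose and 0 fell. They were Lif and Fgf2, given with gliosis, Clcf1 (0.78, adjusted p = 0.033), a cytokine of the same family as Lif, and Ngfr (0.51, adjusted p = 0.0341), the low-affinity neurotrophin receptor. Bdnf, a survival factor of neurons, was at 7.77, 7.75 and 7.71 in NT and 6.84, 5.92 and 6.87 in DPSC and differed by -1.20 ± 0.26 (SE, adjusted p = 0.0613), and without DPSC replicate 2 its difference was -0.89 (adjusted p = 0.0124). Among 24 proteases and inhibitors 4 rose. Adamts4, which cleaves proteoglycans, had tight groups at 6.49, 6.61 and 6.39 in NT and 8.22, 8.42 and 8.33 in DPSC and rose by 1.83 ± 0.11 (SE, adjusted p = 0.0102). Adamts1 rose by 1.22 ± 0.23 (SE, adjusted p = 0.0495), with an adjusted p of 0.0582 without DPSC replicate 2, and Timp1 and Serping1 are given above. Timp2 differed by 0.71 ± 0.14 (SE, adjusted p = 0.0538). Of 34 extracellular matrix and integrin genes 2 rose, Col5a1 (0.96, adjusted p = 0.0392), a fibrillar collagen, and Cd44 (0.80, adjusted p = 0.0441), the hyaluronan receptor.

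Genes that mark mesenchymal stromal cells do not identify the injected cells, since reads were quantified on the rat transcriptome and retinal glia and vessels express them as well. Of 18, Pdgfra and Cd44 rose and Nt5e fell. Pdgfra, a growth factor receptor, was at 8.92, 8.94 and 8.83 in NT and 9.87, 10.07 and 9.59 in DPSC and rose by 0.95 ± 0.13 (SE, adjusted p = 0.0265), and Nt5e, the ectoenzyme CD73, fell by 0.59 ± 0.10 (SE, adjusted p = 0.0443). The remaining lists gave little. Of 26 clock and immediate early genes, Cry1 fell by 0.50 ± 0.09 (SE, adjusted p = 0.0428). Of 23 chemokines and receptors, Cxcl10 was the 1 call. Limma called 0 of 10 checkpoint and regulatory T cell genes, 0 of 24 genes of endothelium and leukocyte adhesion, 0 of 16 genes of cornea, ciliary body and iris and 0 of 2 erythrocyte genes. At an unadjusted p below 0.05 these lists held 3, 5, 4 and 0 genes, where 12.2% of all tested genes were higher and 11.8% lower.

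The sham group, which received NaIO3 without cells, was set beside the DPSC group to see which differences from NT were present without transplantation. These differences come from 1 fit of all 15 libraries, and both comparisons with NT use the same NT libraries, so they are set side by side and not correlated. For rod phototransduction the median difference from NT was -0.68 in sham, and the median of DPSC minus sham was -0.27. For reactive gliosis the values were 1.30 and 0.19. Gfap was at 12.95, 13.53 and 12.80 in the sham libraries, where the DPSC values are 12.71, 13.58 and 13.06, and the difference DPSC minus sham was 0.02. Il4r was at 10.63, 10.80 and 10.74 in sham, a difference of -0.12. For complement the medians were 0.96 (sham minus NT) and 0.18 (DPSC minus sham), and for interferon-stimulated genes 0.77 and 0.17. Larger medians of DPSC minus sham were those of the lens list at 1.75 (sham minus NT 1.26), of the erythrocyte list at 0.71 (0.64), of B and plasma cells at 0.65 (-0.04) and of MHC class II at 0.48 (0.77). No gene of these lists was a DEG against sham. Sham minus NT gave 41 higher DEGs (0.266% of the genes tested) and 4 lower (0.026%).

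Tested directly, DPSC against sham gave 0 higher DEGs (0%) and 2 lower (0.013%) in limma, with 153 genes higher (0.994%) and 213 lower (1.38%) at an unadjusted p below 0.05. The 2 DEGs were RGD1560925 and Krt75. RGD1560925 was at 12.84, 13.08 and 13.08 in NT, at 12.95, 12.81 and 13.20 in sham and at 11.86, 11.52 and 11.91 in DPSC. The sham libraries lay with NT and all DPSC libraries lay below both. The difference was -1.22 from sham (adjusted p = 0.0288) and -1.24 from NT (adjusted p = 0.0156). RGD1560925 was lower than NT in the other cell-treated groups too, with differences of -1.15 in MSC (mesenchymal stem cells) and -0.83 in MSCEPO. Krt75, a keratin of the hair follicle, was at 4.76, 5.24 and 4.96 in NT, 5.57, 6.17 and 5.66 in sham and 4.60, 4.50 and 4.35 in DPSC. It differed from sham by -1.32 (adjusted p = 0.0288). The Krt75 differences from NT were -0.51 in DPSC, -0.50 in MSCEPO and -0.02 in MSC. The corneal keratin Krt12 moved with it, at 9.09, 10.95 and 10.33 in sham and at 7.02, 6.32 and 6.18 in DPSC, and its part in the Krt75 difference was not tested. Fitted on the DPSC and sham libraries alone, limma called 0 in either direction (265 higher and 326 lower at an unadjusted p below 0.05). The Hspb1 values in sham, 7.71, 7.96 and 7.87, lay below all DPSC values, with a difference of 1.42 (adjusted p = 0.214). A p above the threshold does not show that DPSC and sham retinas were alike.

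**Figure D5:**
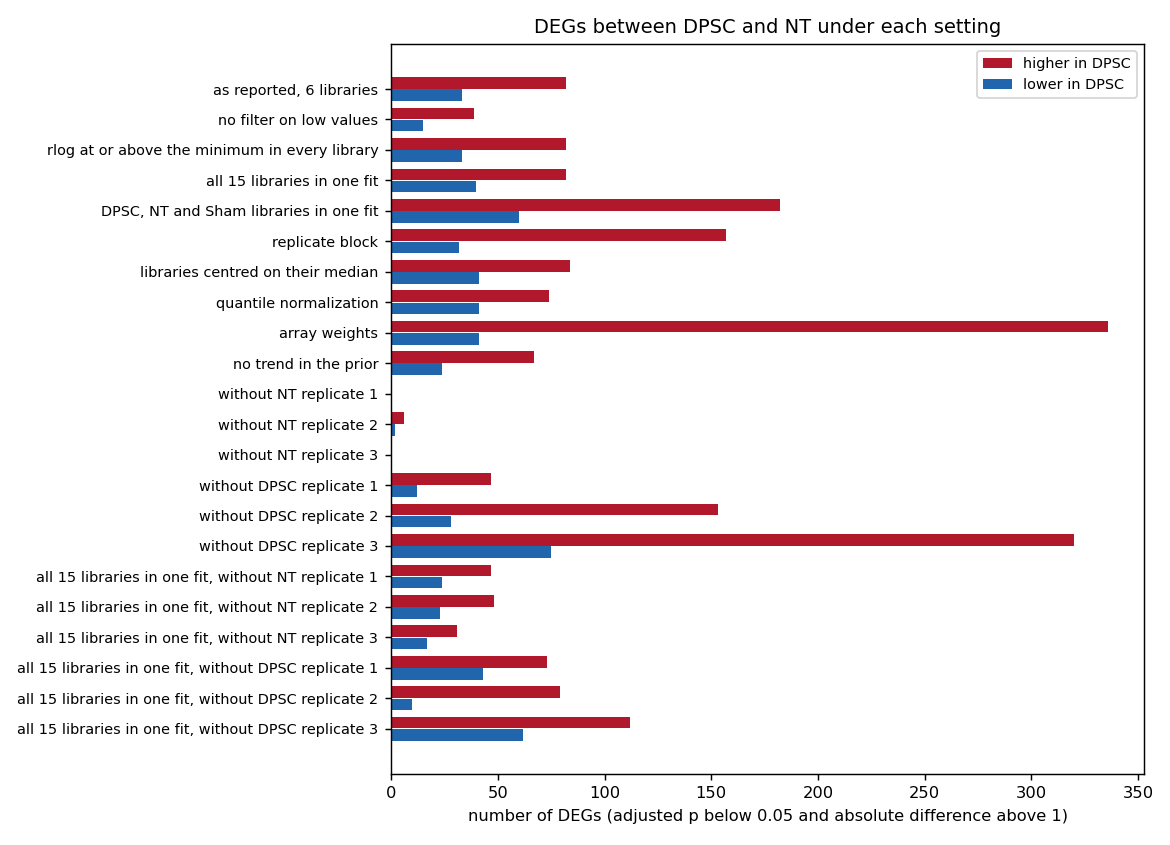
Bars count the DEGs of DPSC against NT (adjusted p below 0.05 and absolute difference above 1) that were higher (red) or lower (blue) under each setting, starting with the 6-library fit (82 and 33). Leaving out NT replicate 1 or 3 from that fit gives 0 and 0, and leaving out the same libraries from the fit of all 15 gives 47 and 24 or 31 and 17.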

How the data were processed

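RNA was sequenced from rat retina, and 6 of the 15 libraries, 3 DPSC and 3 NT, enter the main comparison. The authors quantified reads with Salmon 1.1.0 on the Rnor_6.0 transcriptome and summed them to genes with tximport. The deposited log2 values are rlog values that the authors made with DESeq2, which adjusts for sequencing depth and pulls noisy values to the gene's average. Read counts were not used here, and library depth is therefore unknown. A table of the whole series repeats these values in 15 columns that were not used.

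Groups came from the sample labels. Genes with a mean rlog of at least 3.32 over the 6 libraries were fitted with limma 3.58.1 in R 4.3.3, as group means with a trended prior, and p-values were adjusted by Benjamini-Hochberg over 15397 genes. Sham was compared in 1 fit of all 15 libraries. Each adjusted p in the text comes from limma. With 3 libraries against 3 an exact permutation test of a single value cannot go below 0.1, so none is given. Distances are Euclidean over 20375 genes. The script was tested on simulated data with the spread of the NT and sham libraries. The wider spread of the DPSC libraries was not simulated. The members and the 33 gene lists were chosen with earlier results of these data known. Lists are described by counts and medians, without a set test. The genes named are the 8 most raised and 8 most lowered DEGs (by difference) that have a symbol and groups that do not overlap, up to 5 members of each list with the smallest adjusted p, fixed genes and markers, and the DEGs against sham. Some genes that this rule names are not reported here. The files give 2591 identifiers no symbol, and 1 of these was a DEG. Where identifiers share a symbol, the one with the highest mean was used in the lists. Promoters come from RefSeq (GRCr8), another build than the authors', so they are matched by symbol only. Alternatives covered filters, libraries in the fit, scaling, weights, prior, a block for the replicate number, and each library left out. Leaving libraries out of the 15-library fit and out of the list counts was added after seeing the data.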

Additional observations from a re-analysis of the deposited data

How the results depend on the processing

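All 111 genes named kept the direction of their DPSC minus NT difference under every alternative, but none of the 89 that passed the adjusted p kept it under all of them. Without NT replicate 1 or NT replicate 3 all 89 lost their call, and without NT replicate 2 the number was 84. Without DPSC replicate 1, 57 lost it, without DPSC replicate 2 only 3, and without DPSC replicate 3 none did. Without a filter on low values, which adds tests, 45 lost it, 28 with all 15 libraries fitted together and 19 with a prior without trend. Leaving out 1 library of the 6 gave 0 to 320 higher and 0 to 75 lower DEGs, against 82 and 33, and in the 15-library fit 31 to 112 and 10 to 62 (47 higher without NT replicate 1, 48 higher without NT replicate 2 and 17 lower without NT replicate 3). The higher DEGs numbered 39 with no filter, 182 with sham libraries added to the fit, 336 with array weights and 190 by adjusted p alone. The lower DEGs numbered 15 with no filter, 60 with sham libraries added and 208 by adjusted p alone. The cause was not tested. Median centring gave 84 and 41, quantile normalization 74 and 41, and a prior without trend 67 and 24. For DPSC against sham, the 2 lower DEGs became 0 in a fit of those libraries alone and with median centring (154 genes higher and 199 lower at an unadjusted p below 0.05 in limma), and 1 with quantile normalization. Leaving out 1 library gave 0 to 1 higher and 0 to 5 lower.

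Replicate numbers pair the libraries only by number. The deviations from the group means of equally numbered NT and DPSC libraries correlated at -0.0755, -0.0446 and 0.345 across genes, and with the number as a replicate block limma called 157 higher and 32 lower DEGs against NT and 0 higher and 1 lower against sham, and 18 of the 89 named genes lost their call. Of the 3 NT libraries, 1 correlated best with its own number.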

Other observations

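Among the DEGs that no gene list held were the following, chosen after their values were seen. Chi3l1, a secreted chitinase-like protein of reactive astrocytes, was at 10.14, 10.60 and 10.09 in NT and 12.23, 12.41 and 12.35 in DPSC, and rose by 2.05 ± 0.14 (SE, adjusted p = 0.0105). The DPSC values were close together, and the sham values of 12.33, 12.61 and 12.31 overlapped them. Fcgr3a, an activating Fc receptor of macrophages and NK cells, was at 6.08, 5.72 and 5.79 and 7.64, 8.07 and 7.67 and rose by 1.93 ± 0.16 (SE, adjusted p = 0.0105). Its sham values of 6.94, 7.39 and 6.82 lay between the groups. The transcription factor Sall1, which keeps microglia in their resting identity, rose by 1.46 ± 0.16 (SE, adjusted p = 0.0168), and Aldh1a3, a retinaldehyde dehydrogenase, rose by 1.58 ± 0.27 (SE, adjusted p = 0.0438). Nid1, a basement membrane protein, was at 8.51, 8.89 and 8.35 in NT and 11.36, 10.47 and 9.87 in DPSC, highest in DPSC replicate 1, and rose by 1.98 ± 0.36 (SE, adjusted p = 0.046).

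Lower DEGs outside the lists, chosen in the same way, included genes of photoreceptors. Slc6a6, the transporter of taurine, without which photoreceptors die, was at 13.01, 13.19 and 13.27 in NT and 12.26, 11.67 and 11.89 in DPSC and fell by 1.22 ± 0.16 (SE, adjusted p = 0.0246). Rdh11, a retinol dehydrogenase of the visual cycle, was at 12.62, 12.63 and 12.57 and 11.51, 11.05 and 11.89 and fell by 1.12 ± 0.20 (SE, adjusted p = 0.0452). Clul1, a clusterin-like gene of cones, fell by 1.13 ± 0.12 (SE, adjusted p = 0.0155). Vgf, a secreted neuropeptide precursor that neurotrophins induce, was at 9.52, 9.55 and 9.24 in NT and 8.47, 8.38 and 8.43 in DPSC, with the DPSC libraries within a narrow range, and fell by 1.01 ± 0.10 (SE, adjusted p = 0.0149). With DPSC replicate 2 left out all 9 of these genes had an adjusted p below 0.05 in limma.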
